A study of Sus scrofa with 21 samples.

Results

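The genes described here are 9 genes for secreted proteins of the extracellular matrix, COMP, TNC, SPARC, POSTN, IGFBP5, DCN, LUM, BGN and VCAN, of 24358 genes in the count table. They were picked by symbol, and COMP, TNC and IGFBP5 were on the list because they stood among the genes highest in kidney over liver microbrush libraries. That difference is therefore given below as a description, with no p-value for any of the 9 genes. All 9 symbols were found, each under 1 Ensembl identifier. RNA was sequenced from 21 pig libraries in a study of an endovascular device for sampling endothelial cells, the cells that line blood vessels. A 3D-printed microbrush gave 5 libraries from peripheral kidney arteries and 5 from peripheral liver arteries of pigs 243K and 248K. A Nitinol (nickel-titanium) wire without the brush, the negative control, gave 2 libraries per organ from the same pigs. The positive control was 4 libraries of surgically removed aorta, all from pig 237053, and the 3 whole blood libraries came from pig 243K (2) and pig 248K (1). The labels give no breed, age, sex, treatment or genetic change for any group. Libraries of 1 pig are not separate animals, so every p-value below takes libraries as replicates and none measures the spread between animals.

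Matricellular proteins are secreted into the matrix but do little to hold it up. They bind collagens, growth factors and integrins and change how cells attach, move and divide. The small leucine-rich proteoglycans decorin, lumican and biglycan sit on collagen fibrils, set their spacing and bind TGF-beta, while versican is a large proteoglycan that binds hyaluronan. In the artery wall these proteins are made mainly by smooth muscle cells of the media and fibroblasts of the adventitia, and several are known for rising in injured or remodelling vessels. Endothelial cells and blood cells are lesser sources of most of them.

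The microbrush libraries held 1144949 to 10188551 counts each, the wires 1946284 to 11128399 and the aorta libraries 1603209 to 3033013. Blood 1 and blood 3 held 5301283 and 3224532 counts, but blood 2 held 5633 counts over 302 genes with none on any of the 9 genes, and it was left out of the main fits and of every level given for blood. Among the other device libraries, liver microbrush 1 had counts for 3831 genes, kidney wire 1 for 9714 and liver wire 2 for 10165, against 12651 to 20001 in the rest. Levels are counts per 1000000 counts (CPM) after TMM scaling, a scaling that assumes most genes do not differ between libraries, over the 20 libraries without blood 2. The lists of cell type markers place the artery wall in some microbrush libraries more than in others. The summed level of 8 smooth muscle markers, led by MYH11, the smooth muscle myosin heavy chain, ran from 2380 to 93900 CPM in the kidney microbrush libraries and from 550 to 91340 CPM in the liver microbrush libraries. It lay between 277 and 1372 CPM on the wires, between 23660 and 49090 CPM in aorta and at 52.8 and 81.1 CPM in blood. The endothelial markers measured (6 of 8), led by PECAM1, summed to 150 to 364 CPM in kidney and 208 to 2850 CPM in liver microbrush libraries. The hepatocyte list summed to at most 103.6 CPM and the kidney tubule and podocyte list to at most 103.8 CPM in any microbrush library, and UMOD, which defines kidney tubule, did not pass 2.40 CPM. With bulk RNA, fewer cells of a type and less RNA per cell cannot be told apart.

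COMP and TNC were the matricellular genes with the largest difference between kidney and liver arteries. COMP (ENSSSCG00000013916, Sscrofa11.1 chromosome 2, 59061409 to 59068951, coordinates from RefSeq) encodes cartilage oligomeric matrix protein, a thrombospondin family member that binds collagen and helps keep vascular smooth muscle contractile. Its level was 147, 94.0, 13.6, 462 and 1.79 CPM in kidney microbrush 1 to 5, a mean of 144 ± 188 (SD, n = 5). In liver microbrush 1 to 5 it was 0, 0, 2.10, 0.482 and 18.3 CPM, a mean of 4.17 ± 7.92 (SD, n = 5). The groups overlapped: kidney microbrush 5 lay below liver microbrush 3 and 5, and liver microbrush 5 lay above kidney microbrush 3. Kidney microbrush 4 held 64.3% of the kidney sum and liver microbrush 5 held 87.6% of the liver sum.

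TNC (ENSSSCG00000005494, chromosome 1, 255533235 to 255630381) encodes tenascin C, a large matricellular protein found at sites of remodelling. Its level was 491, 262, 90.9, 1149 and 52.0 CPM in the kidney microbrush libraries, with a mean of 409 ± 449 (SD, n = 5). The liver microbrush libraries gave 1.30, 98.4, 51.6, 46.3 and 49.7 CPM, with a mean of 49.5 ± 34.4 (SD, n = 5). Every kidney library lay above 4 of the 5 liver libraries, and liver microbrush 2 alone reached into the kidney range. The lowest liver value, 1.30 CPM, came from liver microbrush 1, the library with counts for 3831 genes, and without it the ratio of means went from 8.27 to 6.65.

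IGFBP5 (ENSSSCG00000025924, chromosome 15, 118861816 to 118877787) encodes a protein that binds insulin-like growth factors and matrix and modulates how much of the growth factor reaches its receptor. Its level was 540, 227, 99.6, 550 and 99.1 CPM in the kidney microbrush libraries, with a mean of 303 ± 227 (SD, n = 5). The liver microbrush libraries gave 66.1, 29.8, 73.3, 82.4 and 55.6 CPM, with a mean of 61.4 ± 20.2 (SD, n = 5). It was the only one of the 9 genes for which all 5 kidney libraries lay above all 5 liver libraries. Of the 11170 genes with a mean of at least 10 CPM in these libraries, 0.403% had groups that did not overlap, a figure given only as background because IGFBP5 was chosen for this difference.

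In the edgeR fit over 15013 genes the log2 fold change, kidney over liver, was 5.19 ± 1.42 (SE) for COMP, 3.17 ± 1.04 for TNC and 2.47 ± 0.86 for IGFBP5. They ranked 1, 8 and 32 of the genes fitted, where the median of all genes was 0.50 and 73.9% of genes had a positive value. No gene of the table passed a Benjamini-Hochberg adjusted p of 0.05 in this comparison (0.0% called). At an unadjusted p under 0.05 there were 238 genes, 15 higher in kidney and 223 lower, DESeq2 called 66 and limma voom 0. The kidney mean was 34.5 times the liver mean for COMP, 8.27 times for TNC and 4.93 times for IGFBP5. Within pig 243K these ratios were 20.4, 6.58 and 6.84, and within pig 248K they were 93.5, 8.80 and 4.33. These ratios describe the values by which the 3 genes were chosen and support nothing beyond them. Limma voom with quality weights gave smaller log2 values for TNC, 1.75, and IGFBP5, 1.25.

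For the other 6 genes the kidney and liver libraries overlapped and the fitted differences were smaller. SPARC (ENSSSCG00000017082, chromosome 16, 71368164 to 71380972), also called osteonectin, is a collagen-binding matricellular protein. Its level was 562, 398, 76.9, 1639 and 198 CPM in the kidney and 21.2, 814, 1145, 36.2 and 3817 CPM in the liver microbrush libraries. POSTN (ENSSSCG00000009361, chromosome 11, 13225183 to 13258973), periostin, supports collagen assembly and cell migration. It was low on the brush, at 1.36, 6.69, 2.27, 0 and 5.38 CPM in kidney and 0, 41.7, 5.40, 5.30 and 7.50 CPM in liver libraries. For both genes the organs overlapped, and the SD within the liver libraries, 1560 CPM for SPARC and 16.8 CPM for POSTN, was wider than the gap between the means.

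Of the small leucine-rich proteoglycans, BGN (ENSSSCG00000012766, chromosome X, 124282048 to 124295450) gave 342, 233, 60.2, 885 and 109.4 CPM in kidney and 0, 705, 704, 10.1 and 1667 CPM in liver libraries. DCN (ENSSSCG00000000915, chromosome 5, 91678601 to 91713925) gave 9.53, 14.9, 2.27, 36.2 and 16.6 CPM in kidney and 0, 0.579, 1.501, 3.86 and 92.4 CPM in liver libraries. LUM (ENSSSCG00000000916) lies 34945 bases from DCN on the same chromosome, 91748871 to 91756381, and gave 6.81, 30.5, 42.0, 60.3 and 49.3 CPM in kidney and 0, 0, 26.1, 34.7 and 51.4 CPM in liver libraries. For DCN the direction depended on the measure: its mean was higher in liver, 19.7 against 15.9 CPM, and its median was higher in kidney, 14.9 against 1.501 CPM, since liver microbrush 5 held 94.0% of the liver sum. VCAN (ENSSSCG00000014136, chromosome 2, 91682177 to 91811674) was the steadiest of the 9 in kidney, where the 5 libraries ran from 93.6 to 131 CPM with a median of 106.9 CPM and a coefficient of variation of 0.130. Its liver libraries gave 364, 167, 88.3, 178 and 144 CPM, 4 of them above every kidney library.

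**Figure D1:**
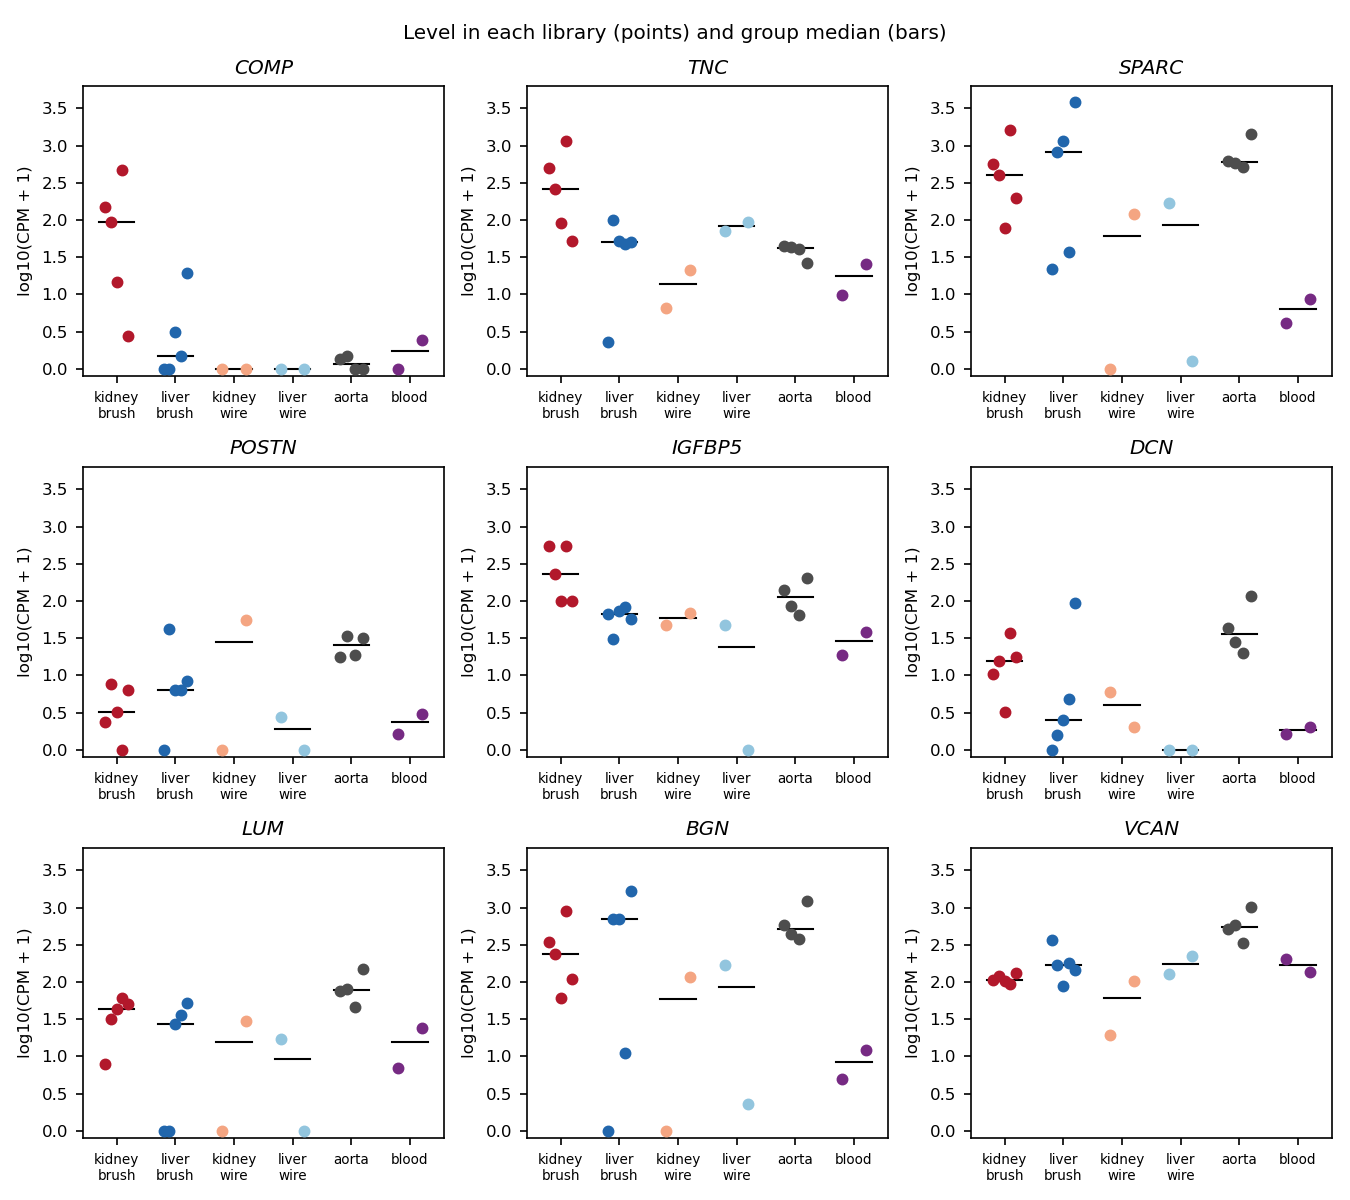
Level of each gene, as log10(CPM + 1), in the kidney and liver microbrush libraries (brush), the wires, aorta and blood, 1 panel per gene; points are libraries, bars are group medians, and blood 2 is left out. COMP and IGFBP5 stand highest in the kidney brush column, SPARC and BGN reach their highest points in liver brush libraries, and COMP sits at 0 on all 4 wires.

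The fitted log2 fold changes, kidney over liver, were -1.76 ± 1.42 (SE) for POSTN, -0.88 ± 1.11 for SPARC, -0.78 ± 1.20 for BGN, -0.54 ± 0.76 for VCAN, -0.16 ± 1.35 for DCN and 0.82 ± 1.22 for LUM. Except for POSTN, each value was smaller than its standard error. The sign held in all 19 alternative fits for LUM and VCAN and in all 18 for POSTN, but it turned positive in 2 of 19 for SPARC and BGN and in 7 of 18 for DCN. Without liver microbrush 5, the value for SPARC was 0.31, for DCN 3.45 and for BGN 0.009, while that for COMP was 7.74.

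The marker sums of the organs overlapped widely. The smooth muscle sum had a median of 20750 CPM and a mean of 32170 CPM in the kidney microbrush libraries, against 1794 and 27110 CPM in the liver ones. The fibroblast sum (6 of 7 markers measured, led by the collagens COL1A1 and COL3A1) had medians of 6552 and 3979 CPM in kidney and liver but means of 8784 and 17320 CPM, so its direction depended on the measure. In the edgeR fit, kidney over liver, 6 of 8 smooth muscle markers had positive values with a median log2 of 0.32, below the 0.50 of all genes, and 5 of 6 fibroblast markers had negative values with a median of -0.94. All 6 endothelial markers were negative, with a median of -1.84 and 3 at an unadjusted p under 0.05, as were all 4 platelet markers measured, with a median of -2.24 and 1 at such a p. None of these markers was called. Cartilage and tendon markers summed to 14.3 to 26.01 CPM in kidney and 0 to 20.7 CPM in liver libraries, with TNMD and SCX, which mark tendon, at or near 0. The part of these cells in the kidney and liver values was not tested over the groups.

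**Figure D2:**
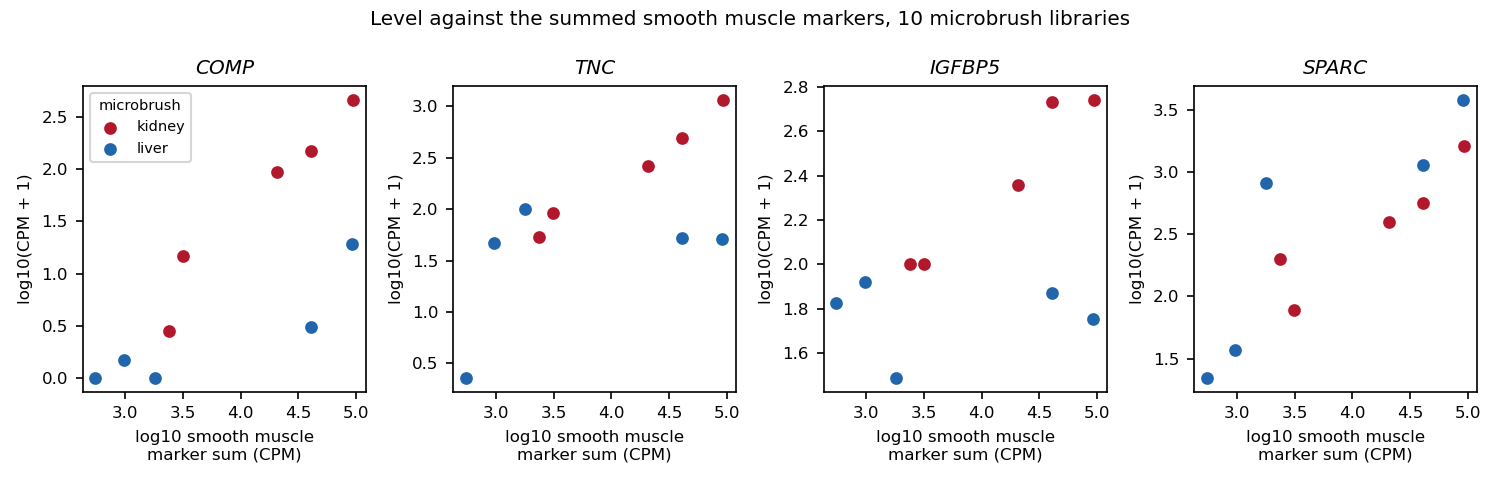
Level of COMP, TNC, IGFBP5 and SPARC as log10(CPM + 1) against log10 of the summed smooth muscle markers in the 10 microbrush libraries, kidney in red and liver in blue. COMP, TNC and IGFBP5 were chosen for high kidney values in these libraries, so the distance between the colours in their panels describes that choice; SPARC, which was not, reaches 1639 CPM in kidney and 3817 CPM in liver libraries.

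The order of the 10 microbrush libraries was shared by some of the 9 genes and not by others. SPARC and BGN kept nearly the same order of libraries, with a Spearman rho of 0.99 (n = 10). DCN and LUM, which are neighbours on chromosome 5, had a rho of 0.84. COMP had rho of 0.77 with IGFBP5, 0.70 with TNC and 0.70 with DCN, and TNC had 0.69 with IGFBP5. COMP, TNC and IGFBP5 were chosen for high values in the same 5 of these libraries, which by itself gives them a positive rho with each other. IGFBP5 followed neither SPARC (-0.02) nor BGN (-0.06). VCAN ran against 7 of the other 8, from -0.69 with COMP to -0.26 with DCN, and had 0.13 with POSTN. These values describe libraries that share 2 pigs and differ in depth and in cells, and without liver microbrush 1 that of DCN and VCAN was 0.02.

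Against the marker sums, SPARC followed the fibroblast list (rho 0.93, n = 10) and the smooth muscle list (0.85), and BGN did likewise (0.88 and 0.79). COMP followed the smooth muscle list (0.84) more closely than TNC (0.53) or IGFBP5 (0.41). LUM and DCN ran against the platelet list (-0.90 and -0.81). VCAN ran with the endothelial list (0.74) and against the smooth muscle list (-0.76). IGFBP5 (-0.76), COMP (-0.72), LUM (-0.61), DCN (-0.59) and TNC (-0.55) ran against the endothelial list. COMP, TNC and IGFBP5 were chosen for high kidney values, and the endothelial markers had negative values in kidney over liver. That choice by itself favours a negative rho for these genes, so their values are a description.

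**Figure D3:**
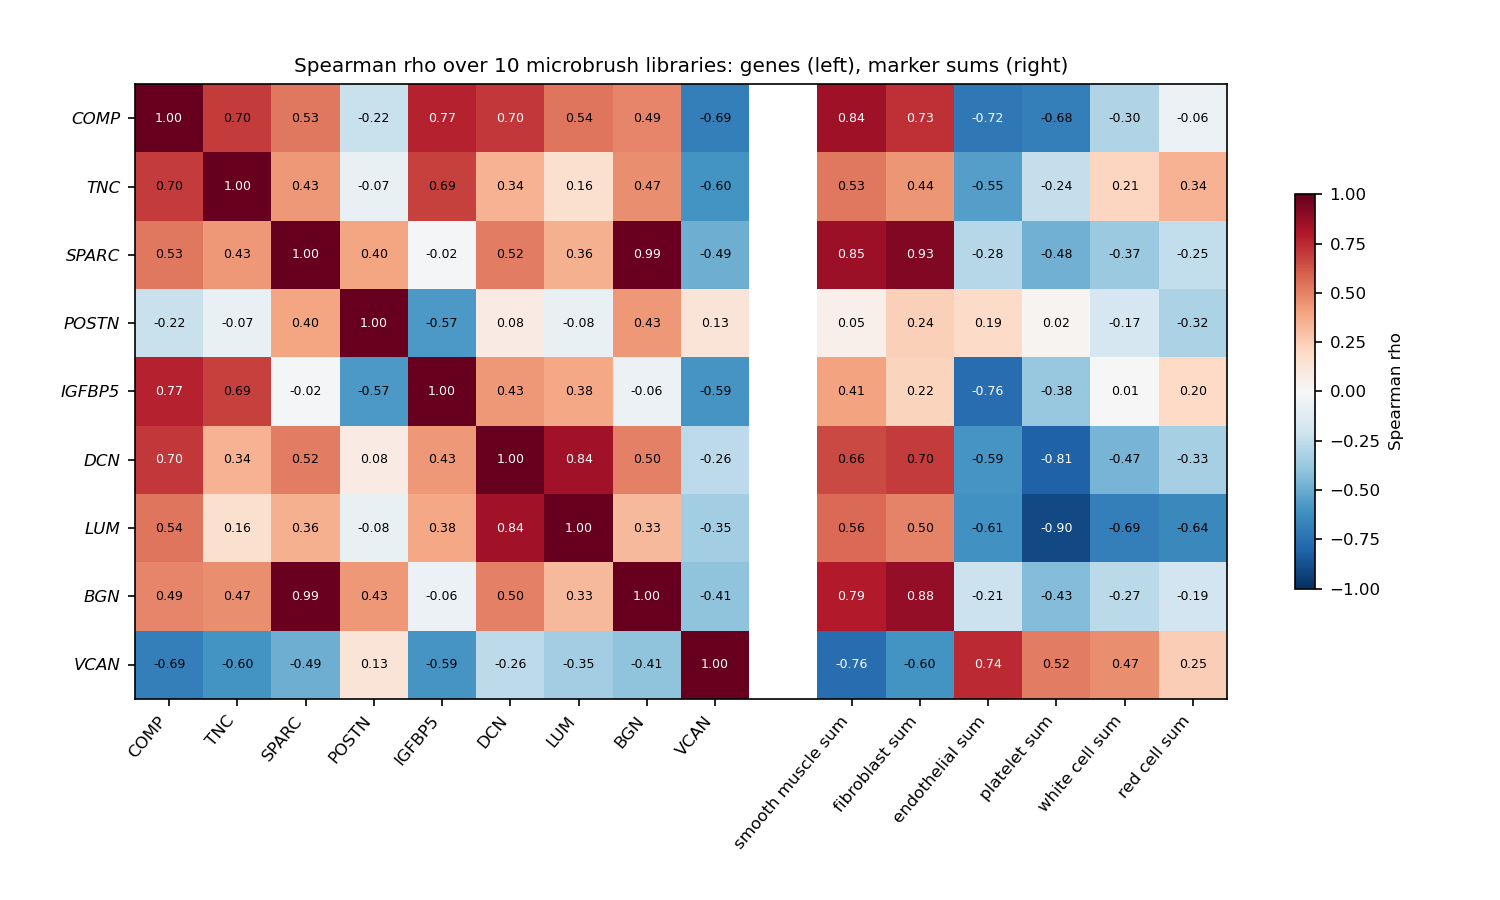
Spearman rho over the 10 microbrush libraries between the 9 genes (left block) and between each gene and the summed level of 6 marker lists (right block), colour from -1 (blue) to 1 (red). SPARC and BGN share a rho of 0.99, and the VCAN row is blue against all the other genes but POSTN.

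Of 9523 other named genes with a mean of at least 10 CPM in the microbrush libraries, those most alike in the order of the 10 libraries were EEF1A2 and NR2F1 for COMP (rho 0.985 each). They were DENND4B (0.964) and SPIDR (0.939) for TNC, and HOXA10 and HOXC10 (0.963 each) for IGFBP5. SPARC shared its order with 7 genes at a rho of 1, ATP8B2 and CNN3 first among them, and BGN with 7 genes including FBN1, the fibrillin 1 gene, and MEGF6. For DCN they were RFC2 (0.988) and COL5A3 (0.948), and for LUM GPC6 and PRRC1 (0.985 each). POSTN was most like TRAF1 and USPL1 (0.948 each), and VCAN most like IFIH1 (0.891) and IRF2 (0.867).

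The wires gave the organ comparison in libraries that the choice of genes had not used, with 2 libraries per organ. TNC was 5.48 and 20.2 CPM on the kidney wires and 71.1 and 94.4 CPM on the liver wires, so both liver wires lay above both kidney wires, where 27.6% of genes of at least 10 CPM did not overlap in either direction. The log2 fold change, kidney over liver, was -2.43 ± 1.48 (SE), with an edgeR adjusted p of 0.9999. This sign is opposite to that on the brush, and the difference between the devices was not tested. COMP had no count on any wire, where 3 counts would have been 0.762 to 1.52 CPM. IGFBP5 was 47.2 and 67.3 CPM on the kidney wires and 46.0 and 0 CPM on the liver wires, a log2 value of 1.32 ± 1.78. For IGFBP5 both kidney wires thus lay above both liver wires, the direction seen on the brush, with 47.2 against 46.0 CPM at the closest. Of the 7 listed genes with a mean of at least 10 CPM on the wires, IGFBP5 was the only 1 higher in kidney without overlap. The 2 higher in liver without overlap were TNC and VCAN.

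VCAN was 18.6 and 102.2 CPM on the kidney wires and 126 and 220 CPM on the liver wires, a log2 value of -1.23 ± 0.96. SPARC was 0 and 120 CPM on the kidney wires and 167 and 0.265 CPM on the liver wires, and BGN 0 and 114.8 CPM and 167 and 1.32 CPM. LUM was 0 and 29.3 CPM on the kidney wires and 16.3 and 0 CPM on the liver wires. In each organ SPARC, BGN and LUM were thus near 0 in 1 wire, and those wires, kidney wire 1 and liver wire 2, are the wires with the fewest genes detected. None of the 6 genes tested was called by edgeR, nor did any have an unadjusted p under 0.05, where 0.0% of 13816 genes were called and 1.02% had such a p. Without liver wire 1, which leaves liver wire 2 alone and assumes that it varies like the kidney wires, IGFBP5 (10.53, edgeR adjusted p 0.01724) and SPARC (8.06, adjusted p 0.04096) were called higher in kidney, where 2.61% of 14115 genes were called in either direction; liver wire 2 had counts for 10165 genes.

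Set against the wire, 8 of the 9 genes had a positive fold change on the microbrush, as did 57.6% of all genes, and none of the 9 was called. The 8 include COMP, TNC and IGFBP5, chosen for high kidney microbrush values, so the count is a description. COMP had 1981 counts over the 10 microbrush libraries and 0 over the 4 wires. Against a floor of 3 counts over the wire group, 0.249 CPM, it was at least 263-fold higher on the brush by pooled counts. Most of that came from the kidney libraries with 1861 counts, and the 120 counts of the liver libraries alone gave a level at least 27.9-fold higher than the floor. All but 8 of those 120 counts came from liver microbrush 5, and the other 4 liver libraries were at 0.716 CPM, at least 2.88-fold higher. The fitted log2 value of 10.87 ± 2.70 (SE) depends on the prior count of the fit and had an edgeR adjusted p of 0.4368. COMP was chosen for its kidney microbrush values and entered the fit through them, so these values are a description.

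SPARC was 0 to 167 CPM on the wires and 21.2 to 3817 CPM on the brush, a log2 value of 3.56 ± 1.44. DCN (3.52 ± 1.68), BGN (2.68 ± 1.38), TNC (2.31 ± 1.096), IGFBP5 (2.12 ± 1.02), LUM (1.35 ± 1.32) and VCAN (0.36 ± 0.74) were also positive, and POSTN was at -1.07 ± 1.39, with 54.6 CPM in kidney wire 2. The edgeR adjusted p was 0.9998 for all of these. COMP, TNC, IGFBP5, SPARC and DCN, 5 of 9, had an unadjusted p under 0.05, where 3.15% of 16439 genes did. COMP, TNC and IGFBP5 had been chosen for high values in 5 of these microbrush libraries, so their share of that count is not independent. The median of the 9 genes was 2.31, the value of TNC, and that of all genes was 0.17. COMP, TNC and IGFBP5 enter the median of the 9 genes through values by which they were chosen, so it is a description. No gene of the table was called (0.0%; 518 at an unadjusted p under 0.05, 96 higher and 5 lower by DESeq2, 0 by limma voom). None of the 8 genes with a mean of at least 10 CPM had groups that did not overlap, as did 0.0722% of all such genes. In pig 248K alone, where the wires are kidney wire 1 and liver wire 2, SPARC (11.14, edgeR adjusted p 3.567e-05) and BGN (8.57, adjusted p 0.00132) were called, where 0.279% of genes were. Smooth muscle markers moved with these genes: all 8 had positive values, with a median of 4.72, and 4 of 5 red cell markers had negative values. Their part was not tested.

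Among related genes none was called between brush and wire, and the share with positive values is to be read against 57.6% of all genes. Of 24 other matricellular genes tested 17 had positive values, and the smallest p-values belonged to MFGE8, a milk fat globule protein that bridges cells and matrix (5.49 ± 1.49), SPARCL1, the SPARC-like hevin (4.49 ± 1.37), and THBS2, thrombospondin 2 (3.11 ± 1.11). Of 23 other proteoglycans 14 were positive, led by PODN (2.93 ± 1.08), CSPG4 (3.54 ± 1.31) and FMOD (2.79 ± 1.18). In the IGF axis 9 of 12 were positive, led by the receptor IGF1R (2.81 ± 1.01), IGFBP6 (5.27 ± 2.06) and IGFBP7 (2.33 ± 1.15). Of 17 TGF-beta pathway genes 9 were positive, with TGFB3 at 2.86 ± 1.24. Of 17 receptors 10 were positive, with EGFR at 3.83 ± 1.27 and the integrins ITGA8 at 3.34 ± 1.31 and ITGAV at 2.65 ± 1.07. Of 23 enzymes of proteoglycans and hyaluronan 14 were positive, with the versican-cleaving ADAMTS9 at 3.59 ± 1.20.

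Between kidney and liver microbrush libraries no related gene was called either, in any of the 6 lists. Positive values, 73.9% of all genes, were had by 14 of 24 other matricellular genes, 14 of 23 other proteoglycans and 17 of 22 enzymes. In the IGF axis they were 7 of 12, in the TGF-beta pathway 5 of 17 and among receptors 9 of 17. Of the 238 genes of the table at an unadjusted p under 0.05, 223 were lower in kidney. The related genes with the smallest p-values also had negative values in kidney over liver. Among them were FBLN1, fibulin 1 (-3.03 ± 1.001), LTBP2, a latent TGF-beta binding protein (-2.95 ± 1.13), the integrin subunits ITGB3 (-2.78 ± 1.07) and ITGB1 (-2.19 ± 0.995), and THBS1, thrombospondin 1 (-1.997 ± 0.97). Each had an edgeR adjusted p of 0.9998. THBS1 ran from 94.7 to 727 CPM in kidney and from 352 to 4333 CPM in liver libraries, and FBLN1 from 30.9 to 55.1 CPM and from 29.4 to 1422 CPM, so the organs overlapped. ITGB3 and THBS1 are also abundant in platelets. The platelet marker sum had a median of 255.6 CPM in kidney and 2260 CPM in liver libraries, with overlapping ranges, and its part was not tested.

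Compared with surgically removed aorta, COMP and TNC had positive and VCAN a negative fold change on the brush, none past the adjusted threshold. The aorta is from another pig, so animal and sample type cannot be told apart. COMP was 0.350, 0.495, 0 and 0 CPM in aorta 1 to 4, 3 counts in all. Its pooled level on the brush was 246 times that in aorta (exact 95% counting interval 84.0 to 1192, which covers counting error only). The liver microbrush libraries alone were at 26.02 times (8.69 to 128), and without liver microbrush 5 at 2.69 times (0.645 to 15.7). TNC was 43.4, 42.9, 39.7 and 25.1 CPM in aorta, below every kidney microbrush library, for whose values it was chosen, and within the range of the liver ones. Between kidney microbrush and aorta 5.46% of genes of at least 10 CPM did not overlap in either direction. Of the 9 genes, 2 lay above aorta in every kidney microbrush library, COMP and TNC, both chosen for these values. Another 2, POSTN and VCAN, lay below aorta in every kidney microbrush library. VCAN was 521, 585, 330 and 1016 CPM in aorta, and only liver microbrush 1, at 364 CPM, reached into that range.

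The log2 fold change, brush over aorta, was 8.03 ± 2.12 (SE) for COMP with an edgeR adjusted p of 0.1784, 2.62 ± 1.09 for TNC (0.7616) and -2.02 ± 0.63 for VCAN (0.3026). These 3 of 9 had an unadjusted p under 0.05, as did 4.8% of 16776 genes, and 0.125% of all genes were called. COMP and TNC had been chosen for high kidney microbrush values, which this comparison contains. IGFBP5 was 139, 85.7, 64.5 and 202 CPM in aorta, a log2 value of 0.58 ± 0.79. SPARC, at 619, 588, 521 and 1423 CPM, and BGN, at 577, 442, 373 and 1224 CPM in aorta, were at 0.16 ± 0.99 and -0.46 ± 1.04. POSTN (-1.66 ± 0.97), DCN (-1.496 ± 0.98) and LUM (-1.52 ± 0.87) had negative values and did not pass the test. No gene of the 9 had groups that did not overlap, against 2.1% of all genes of at least 10 CPM. The median of the 9 genes was -0.46 and that of all genes was -0.17.

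Which of these were called differed between fits. Without liver microbrush 1 VCAN was called lower (-2.29, edgeR adjusted p 0.03901), where 0.215% of genes were. DESeq2 called VCAN lower (adjusted p 0.002078), where 1.25% of genes were called, and limma voom called POSTN (0.001634), DCN (0.006642) and VCAN (0.0003519), all 3 lower on the brush, where 4.51% were. Calls of COMP by other fits are not given, because the gene was chosen for its kidney microbrush values and had 3 counts in aorta. Of the related genes none was called. The smallest p-values were those of THBS1 (5.13 ± 1.19, edgeR adjusted p 0.09401), the tenascin TNXB (-2.64 ± 0.73), ITGB3 (4.42 ± 1.28), TGFB2 (2.76 ± 0.86) and TGFBR3 (-2.23 ± 0.74). SRGN, the proteoglycan of blood cell granules, was at 2.93 ± 1.02. Platelet markers were positive in 4 of 4 with a median of 5.23, and their part was not tested.

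**Figure D4:**
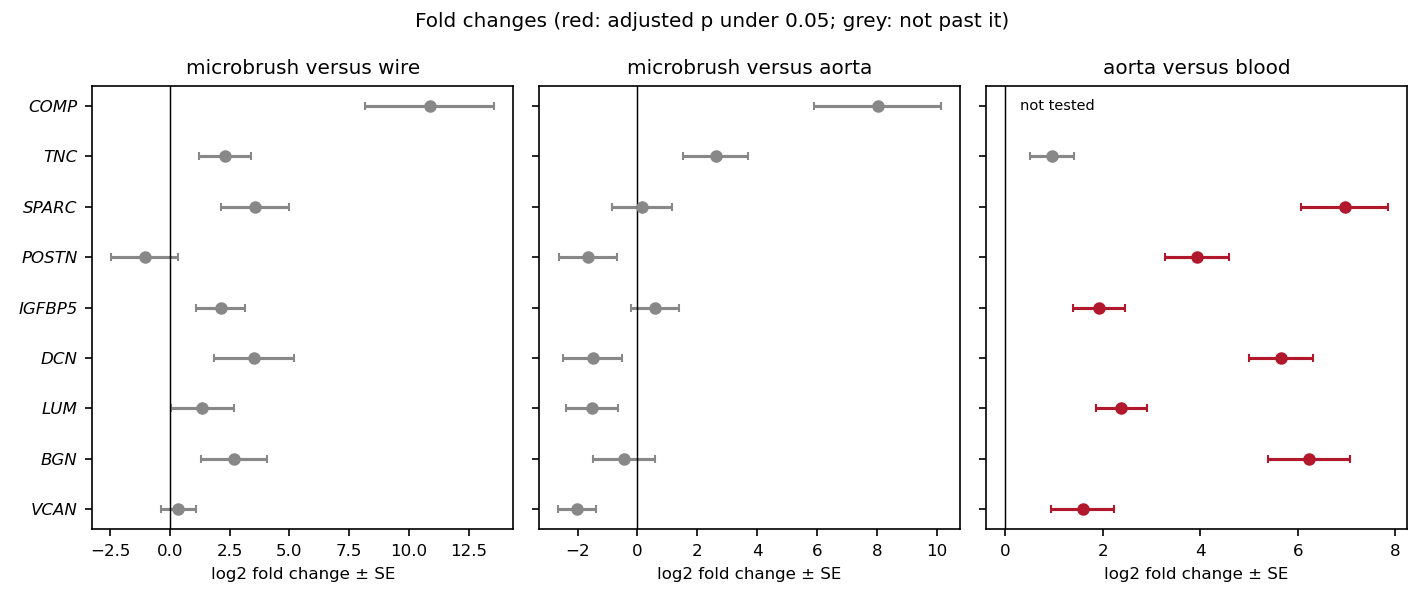
Log2 fold change of each gene with its standard error in 3 comparisons, from edgeR; red points have an adjusted p under 0.05 and grey points do not. No gene is red for brush against wire or brush against aorta, and 7 are red for aorta against blood; the COMP value against the wire (10.87) rests on 0 wire counts and depends on the prior count.

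The same aorta libraries were then set against the wires, which came from other pigs, so animal and sample type again cannot be told apart. SPARC, DCN, LUM, BGN and VCAN were higher in every aorta library than in every wire, 5 of the 8 genes of at least 10 CPM, where 20.1% of such genes did not overlap in either direction. The log2 fold change, wire over aorta, was -4.97 ± 1.48 (SE) for DCN, with an edgeR adjusted p of 0.1102, and -2.35 ± 0.69 for VCAN (0.0996). It was -3.36 ± 1.51 for SPARC (0.3927), -3.11 ± 1.41 for BGN (0.4021) and -2.84 ± 1.32 for LUM (0.425). IGFBP5 (-1.49 ± 1.05), POSTN (-0.69 ± 1.60) and TNC (0.40 ± 0.74) had smaller values, and COMP was too low to test. None of the 8 tested was called, where 3.57% of 15313 genes were, and DCN, VCAN, SPARC and BGN had an unadjusted p under 0.05, where 12.3% did. Without kidney wire 1 DCN was called (-7.45, edgeR adjusted p 0.02762), where 3.68% of genes were. DCN had 12 counts on kidney wire 1, 2 on kidney wire 2 and 0 on both liver wires, and entered the fit through its aorta counts. With so few wire counts its edgeR value depends on the prior count, and its calls against aorta here are a description. DESeq2 called DCN and VCAN, where 7.48% of genes were called, and limma voom called SPARC, DCN, BGN and VCAN, where 5.34% were.

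Of the related genes, some were called between wire and aorta, where 3.57% of all genes were. THBS1 was higher on the wire (6.27 ± 0.75, edgeR adjusted p 0.005201), with 926 to 4876 CPM on the wires against 20.4 to 34.7 CPM in aorta. THBS2 (-3.66 ± 0.56), TNXB (-3.24 ± 0.63) and MFGE8 (-5.49 ± 1.08) were lower, so 4 of 24 other matricellular genes were called. In the other lists IGF1R was lower (-3.41 ± 0.46, 1 of 12 in the IGF axis), ITGB3 higher (5.42 ± 0.84) and ITGA8, an integrin subunit of smooth muscle, lower (-5.45 ± 1.14, 2 of 17 receptors). None of 24 other proteoglycans and none of 23 enzymes was called, with SRGN at 4.40 ± 1.13 (edgeR adjusted p 0.0614). Platelet markers were higher on the wire in 3 of 4 and smooth muscle markers lower in 4 of 8, and their part was not tested.

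The clearest difference of the 9 genes was that between aorta and blood. The aorta is from a pig that gave no blood library, so animal and tissue cannot be told apart. Of 8 tested, 7 were higher in aorta, where 28.5% of 17082 genes were called in either direction, 1677 higher and 3198 lower. SPARC was 619, 588, 521 and 1423 CPM in aorta and 3.11 and 7.81 CPM in blood 1 and 3, a log2 fold change of 6.96 ± 0.89 (SE) with an edgeR adjusted p of 3.259e-13. BGN, at 3.94 and 11.09 CPM in blood, rose by 6.24 ± 0.84 (6.356e-12). DCN was 43.0, 27.3, 18.9 and 114.5 CPM in aorta and 0.622 and 1.03 CPM in blood, 5.66 ± 0.65 (4.938e-16). POSTN was 16.4, 33.0, 17.9 and 30.6 CPM in aorta and 0.622 and 2.05 CPM in blood, 3.94 ± 0.66 (4.041e-08). These 4 genes were thus low in blood, at no more than 11.09 CPM.

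LUM, IGFBP5, TNC and VCAN were present in blood at levels nearer to those of aorta. LUM was 75.2, 78.8, 45.7 and 149 CPM in aorta and 6.01 and 23.2 CPM in blood, 2.38 ± 0.52 (edgeR adjusted p 3.79e-05). IGFBP5 was 18.0 and 37.8 CPM in blood, 1.92 ± 0.54 (0.00204). VCAN was 200 and 137 CPM in blood, whose monocytes also make it, 1.59 ± 0.64 (0.0476). Its call ended with RLE scaling (0.07233), with no filter (0.06434), with limma voom (0.1172), with blood 2 included (0.766) and with any of the 6 libraries left out (0.05061 to 0.1497). TNC, at 8.70 and 24.9 CPM in blood, did not pass (0.96 ± 0.46, 0.1063) unless blood 3 was left out (0.007566, where 39.7% of genes were called). All 8 genes had aorta values above both blood values, where 49.4% of genes of at least 10 CPM did not overlap in either direction. With blood 2 included 239 genes of the table and 2 of the 9, POSTN (0.01911) and DCN (0.01335), were called, 1.49% of all genes.

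The related genes differed between aorta and blood in both directions, where 28.5% of all genes were called and 9.82% were called higher in aorta. Of 24 other matricellular genes 11 were higher in aorta and 2 lower: SMOC2 (4.89 ± 0.64) and MFGE8 (3.98 ± 0.62) rose, and THBS1 fell by 3.64 ± 0.51. Of 24 other proteoglycans 11 were higher and 1 lower: HSPG2, the basement membrane proteoglycan perlecan, rose by 8.14 ± 0.98 and CSPG4 by 4.41 ± 0.71, and SRGN fell by 5.23 ± 0.49. In the IGF axis HTRA1, a protease that cleaves IGF binding proteins (4.52 ± 0.57), IGFBP7 (5.44 ± 0.79), IGF1R (2.74 ± 0.61) and IGFBP4 (1.85 ± 0.48) were higher, 4 of 12. Of 17 TGF-beta pathway genes 7 were higher and 2 lower, with LTBP4 at 6.97 ± 0.85, LTBP2 at 6.84 ± 0.89 and TGFBR3 at 2.67 ± 0.50. Of 17 receptors 10 were higher and 4 lower, with ITGA8 at 7.40 ± 0.93, ITGA9, a tenascin C receptor subunit, at 4.35 ± 0.59 and EGFR at 3.29 ± 0.52. Of 23 enzymes 4 were higher: ADAMTS9 (2.03 ± 0.50), ADAMTS1 (2.0 ± 0.50), CHPF (1.85 ± 0.50) and CHST3 (1.56 ± 0.49). All 8 smooth muscle and all 6 fibroblast markers were higher in aorta too.

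Between microbrush and blood none of the 9 genes was called, where 0.0168% of 17832 genes were, all 3 of them lower on the brush. Fold changes were positive for 8 of the 9, against 57.3% of all genes tested. These 8 fold changes include those of COMP, TNC and IGFBP5, chosen for high kidney microbrush values, so the count is a description. SPARC had the largest, 7.34 ± 2.10 (SE) with an edgeR adjusted p of 0.5172, and was the only one of 8 genes of at least 10 CPM whose groups did not overlap, with 21.2 CPM in its lowest microbrush library against 7.81 CPM in its highest blood library. Such genes made up 5.64% of all. COMP, at 0 and 1.44 CPM in blood, had 6.64 ± 2.92, BGN 5.99 ± 2.04, DCN 4.40 ± 2.06, TNC 3.797 ± 1.64 and IGFBP5 2.73 ± 1.33. These 6 had an unadjusted p under 0.05, where 3.76% of genes did, but COMP, TNC and IGFBP5 had been chosen for high values in 5 of the 10 microbrush libraries, which leaves SPARC, BGN and DCN as the 3 not picked on those values. POSTN (2.50 ± 1.93), LUM (1.07 ± 1.45) and VCAN (-0.15 ± 0.96) did not. DESeq2 called SPARC and BGN, where 288 genes were called, 5.02% of the 5732 to which it gave an adjusted p. Limma voom called SPARC, BGN, TNC and IGFBP5, where 6.07% of 17832 genes were. The calls of TNC and IGFBP5 rest on values by which they were chosen and are a description. No related gene was called, with HSPG2 (8.91 ± 2.39), LTBP4 (6.77 ± 1.86), SPARCL1 (6.38 ± 2.11) and IGFBP7 (5.78 ± 1.84) at the smallest p-values of their lists.

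Ordered by group median, COMP went from the kidney microbrush at 94.0 CPM to medians of 0 to 0.719 CPM everywhere else. TNC went from the kidney microbrush (262 CPM) to the liver microbrush (49.7 CPM), the wires (45.7 CPM), aorta (41.3 CPM) and blood (16.8 CPM), with the liver microbrush, wire and aorta ranges overlapping. IGFBP5 went from the kidney microbrush (227 CPM) to aorta (112.1 CPM), the liver microbrush (66.1 CPM), the wires (46.6 CPM) and blood (27.9 CPM), each overlapping its neighbour except that the liver microbrush libraries lay below the kidney ones. SPARC and BGN were high in the liver microbrush (814 and 704 CPM), aorta (604 and 510 CPM) and the kidney microbrush (398 and 233 CPM), whose ranges overlapped, and low on the wires (60.3 and 58.1 CPM) and in blood (5.46 and 7.51 CPM). DCN, LUM, POSTN and VCAN had their highest medians in aorta, at 35.1, 77.0, 24.3 and 553 CPM.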

How the data were processed

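The authors deposited 1 table of estimated counts per Ensembl gene, made with Salmon per the submitters' processing notes, which also name DESeq2 and the build Sscrofa11.1; versions, annotation and trimming are not given in the sources used here. Per the labels' protocols, an RNAdvance Tissue kit gave the total RNA and SMARTer Pico the libraries. Values that were not whole, 11.9%, were rounded before testing. Symbols came from a supplied gene table for 14692 genes, with 9666 left unnamed, and coordinates from a RefSeq table of the same build. None of 210 pairs of libraries agreed within sampling noise (chi-square per degree of freedom at least 5.91, limit 1.5).

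For each comparison a separate fit was made in edgeR 4.0.16 under R 4.3.3 (filterByExpr with a minimum count of 10, TMM, robust quasi-likelihood test, Benjamini-Hochberg adjusted p under 0.05 over all genes tested). The fit was also run on simulated counts, drawn from the pooled means of the libraries with the same spread for every gene. Real genes differ in spread, so that run does not show how the fit performs on these libraries. Standard errors are the log2 fold change divided by the root of the F statistic. Alternatives used RLE scaling, no filter, a minimum count of 50, DESeq2 1.42.0, limma 3.58.1 voom with quality weights, haemoglobin genes and the identifiers ENSSSCG00000018063 and ENSSSCG00000018061 left out, the pig as a replicate block, each organ or pig alone, and each library left out. Pig numbers come from the labels; replicate numbers were given in accession order and pair nothing. The 9 genes and the lists were chosen with earlier results of these data known. Named were the 9 genes, up to 3 genes of the smallest p per related list, all called genes of a list with 5 or fewer, the 2 most alike genes and the markers. A gene that this rule names is not reported here.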

Additional observations from a re-analysis of the deposited data

Results flagged for a closer look

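Of 35 groups of 4 or 5 libraries examined, 5 had a library that stood far from the rest by Dixon's test at the 95% level. For normally distributed values in separate groups, chance flags about 1 in 20. These CPM values are skewed and the groups share libraries, so that rate does not hold here and the flags are a description. COMP in liver microbrush 5 was at 18.3 CPM, with the other liver microbrush libraries at 0 to 2.10 CPM. DCN in the same library was at 92.4 CPM, with the others at 0 to 3.86 CPM, and that library also had the highest SPARC and BGN levels of the table and smooth muscle and fibroblast sums of 91340 and 64400 CPM. POSTN was at 41.7 CPM in liver microbrush 2, against 0 to 7.50 CPM in the other liver microbrush libraries, and at 54.6 CPM in kidney wire 2, against 0 to 1.78 CPM in the other wires. SPARC in aorta 4 was at 1423 CPM, with the other aorta libraries at 521 to 619 CPM, and aorta 4 also had the highest smooth muscle sum in aorta, 49090 CPM. The part of these cells in the values was not tested.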

How the results depend on the processing

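Of 1085 values of the 9 genes under alternatives, 1029 were counted as unchanged, 27 gained a call, 14 lost one, 12 reversed and 3 moved. Kidney over liver on the brush, unchanged meant the same sign and a move smaller than the standard error. Elsewhere it meant the same side of the threshold, so a change of sign without a call was not counted as reversed. The value of SPARC, brush against aorta, kept its sign in 17 of 23 alternatives, yet all 23 were counted as unchanged. Kidney over liver on the brush, the called genes went from 0 to 1 with no filter, 66 with DESeq2 (which gave 1042 genes an adjusted p) and 901 in pig 243K alone. The log2 value of DCN went from -0.16 to 0.31 with RLE scaling, 0.31 with DESeq2, 1.98 with limma voom, 0.28 with the pig as a replicate block, 1.78 in pig 248K alone and -0.71 to 3.45 with 1 library left out. That of SPARC was 0.25 and that of BGN 0.84 with limma voom, and -1.73 to 0.31 and -1.54 to 0.009 with 1 library left out. Brush against wire, DESeq2 called 96 genes higher and 5 lower and 1 of the 9, and pig 248K alone 42 higher and 4 lower and 2 of the 9. Brush against aorta (21 genes, 0 of the 9), no filter gave 39 genes, DESeq2 206 (2 of the 9), limma voom 757 (3), kidney devices alone 88 (1), liver devices alone 40, and leaving out 1 library 7 to 38 (0 to 1). The run without the low-gene libraries liver microbrush 1, kidney wire 1 and liver wire 2, chosen after seeing the data, gave 36 genes (1 of the 9) there and 0 genes against blood. Wire against aorta (546, 0), DESeq2 gave 1116 (2), no filter 1 of the 9, limma voom 4 of the 9, and leaving out 1 library 62 to 1515 genes (0 to 1), the lowest without aorta 2 and the highest without kidney wire 2. Aorta against blood (4875, 7), limma voom gave 3236, blood 2 included 239 (2), and 1 library left out 2488 to 6990. Brush against blood (3, 0), RLE scaling gave 0, no filter 14, DESeq2 288 (2), limma voom 1082 (4), and 1 library left out 0 to 17. Kidney over liver on the wire (0, 0), DESeq2 gave 9, limma voom 3, leaving out haemoglobin genes and the 2 abundant identifiers 1, and 1 library left out 0 to 368 genes and 0 to 2 of the 9; SPARC there ran from -11.33 to 8.06. With the pig as a replicate block 0 genes were called between organs on brush or wire and between brush and wire, and 4 between brush and blood, and the block changed no call of the 9. Calls of COMP, TNC or IGFBP5 among the 9 in comparisons with the brush rest on values by which they were chosen. The cause of these changes was not tested. At these depths 3 counts were 0.489 to 1.52 CPM per library outside blood 2, so POSTN, DCN and liver COMP rest on few counts.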
